A study of Mus musculus with 5 samples.

Results

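The genes described here are the cytokine that defines type 1 immunity and the receptor chains through which T cells receive the signals around it. They are 8 genes chosen by name, *Ifng*, *Il12rb1*, *Il12rb2*, *Il18r1*, *Il18rap*, *Ifngr1*, *Ifngr2* and *Il27ra*, of 55487 in the count tables. All 8 were among the 13525 genes with enough reads to be tested.

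RNA was sequenced from CD4 single positive (CD4 SP) thymocytes of 3 wild type and 2 *Tet2/3* DKO mice, with 1 library per mouse. All mice were on the C57BL/6J background and of about weaning age. The DKO mice had the genotype Tet2-/-Tet3flx/flxCD4cre, in which *Tet2* is lost in all cells and the floxed *Tet3* is removed by a Cre recombinase under the *Cd4* promoter, which acts from the double positive stage onwards. Wild type mice carried none of these alleles, so a part of the Cre itself cannot be told apart from that of the lost genes. Cells low in CD24 were sorted as CD4+, CD8-, TCRβ+ and negative for the αGalCer-loaded CD1d tetramer, a gate meant to leave out invariant NKT (iNKT) cells. SMART-seq was used, a chemistry that copies full-length cDNA from little RNA without molecular identifiers.

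IFN-γ, the product of *Ifng*, is secreted by T helper 1 cells, natural killer (NK) cells and innate-like T cells and activates macrophages. IL-12 and IL-18, made by dendritic cells and macrophages, act together to switch *Ifng* on, IL-12 through STAT4 and IL-18 through MyD88 and NF-κB. IL-27 acts on naive T cells. In the thymus, conventional CD4 SP cells leave as naive cells, while several innate-like T cell populations already carry the receptors for IL-12 and IL-18. TET proteins oxidise 5-methylcytosine, a step towards the loss of methylation at CpG sites.

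The 5 libraries held 17607089 to 27267031 counted reads. Transcripts that mark the sorted cells were abundant in each, with 7741 to 17858 counts of *Cd4* and 11107 to 20391 counts of *Cd3e*. *Cd4* was itself lower in DKO cells (log2 fold change -0.67, adjusted p = 0.0095, edgeR). *Tet3* was lower in DKO cells, with 1133, 1082 and 1440 counts in wild type and 419 and 235 in DKO libraries (log2 fold change -1.50, with a standard error, SE, of 0.18, adjusted p = 0.00121). *Tet2* counts were not lower (1355, 1286 and 1585 against 1919 and 1048, adjusted p = 0.135), and a count over the whole gene does not test a deletion of exons. A pair of libraries goes against the sex in their labels. DKO replicate 1, labelled male, had 744 counts of *Xist* and 0 to 5 counts of each of *Ddx3y*, *Eif2s3y*, *Kdm5d* and *Uty*, whereas the library labelled wild type replicate 1 and female had no *Xist* count and 415 to 3890 counts of these Y-linked genes. DKO replicate 2 had no *Xist* count and 346 to 2973 counts of these genes, so the DKO mice differed in sex by RNA. Wild type replicates 2 and 3 had 2 and 1 counts of *Xist* and 2095 and 1778 of *Ddx3y*. DKO replicate 1 also had the largest share of reads outside annotated genes, 6.45% against 3.94% to 4.16% in the other libraries. Every result below is therefore accompanied, where it matters, by its value without 1 of the DKO libraries. Such a fit holds no spread between DKO mice and takes the lone DKO library to vary like wild type. Passing the threshold in it is therefore no check on the DKO side.

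The promoters of 4 of these genes and of a non-coding RNA next to *Ifng* are shown first, since CpG sites are the substrate of the enzymes that the DKO mice lack. Each sequence runs from 250 bases before to 50 bases after a start site in RefSeq (build GRCm38.p6), 5′ to 3′ on the strand of the gene, with the CpG sites in capitals.
*Ifng* (chr10:118440796-118441095, plus strand): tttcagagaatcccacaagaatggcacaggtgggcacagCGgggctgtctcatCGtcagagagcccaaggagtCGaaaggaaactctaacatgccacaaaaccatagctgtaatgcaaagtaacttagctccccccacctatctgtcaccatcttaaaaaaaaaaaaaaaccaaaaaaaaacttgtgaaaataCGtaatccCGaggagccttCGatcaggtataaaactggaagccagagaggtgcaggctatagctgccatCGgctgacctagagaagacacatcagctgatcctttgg
*Ifngas1* (chr10:118556476-118556775, minus strand): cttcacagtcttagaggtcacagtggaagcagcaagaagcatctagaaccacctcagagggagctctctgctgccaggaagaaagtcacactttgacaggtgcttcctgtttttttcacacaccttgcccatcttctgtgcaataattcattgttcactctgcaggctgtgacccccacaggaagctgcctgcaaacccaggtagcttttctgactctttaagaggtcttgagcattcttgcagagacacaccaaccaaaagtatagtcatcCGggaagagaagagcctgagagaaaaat
*Il12rb2* (chr6:67376139-67376438, minus strand): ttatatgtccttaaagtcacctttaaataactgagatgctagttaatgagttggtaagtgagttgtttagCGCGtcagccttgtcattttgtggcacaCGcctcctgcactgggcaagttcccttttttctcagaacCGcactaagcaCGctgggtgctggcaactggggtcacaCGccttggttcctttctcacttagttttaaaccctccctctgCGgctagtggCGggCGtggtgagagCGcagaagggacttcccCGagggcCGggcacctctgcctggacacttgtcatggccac
*Il18rap* (chr1:40515112-40515411, plus strand): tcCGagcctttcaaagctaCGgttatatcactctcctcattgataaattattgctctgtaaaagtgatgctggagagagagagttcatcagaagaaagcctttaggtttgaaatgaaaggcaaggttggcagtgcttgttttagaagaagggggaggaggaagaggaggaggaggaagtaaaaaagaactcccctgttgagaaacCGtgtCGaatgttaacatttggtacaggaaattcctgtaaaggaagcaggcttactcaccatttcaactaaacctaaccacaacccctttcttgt
*Ifngr1* (chr10:19591699-19591998, plus strand): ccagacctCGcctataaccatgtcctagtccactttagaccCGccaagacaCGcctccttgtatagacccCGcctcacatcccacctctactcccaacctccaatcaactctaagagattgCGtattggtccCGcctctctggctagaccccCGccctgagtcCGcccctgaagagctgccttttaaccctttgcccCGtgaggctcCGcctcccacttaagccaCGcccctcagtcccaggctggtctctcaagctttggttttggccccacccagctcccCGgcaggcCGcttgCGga

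Promoters in the table used were matched for 6 of the 8 genes, not for *Il12rb1* and *Il27ra*, and *Il18r1* had several start sites. Over 32851 promoters of this length the median number of CpG sites was 7. *Ifngas1* had 1 CpG site and *Il18rap* had 4, a number that 38.0% of all promoters did not exceed. *Ifng* had 7, *Il12rb2* 12 and *Ifngr1* 14 CpG sites. *Ifngr2*, not printed, had 31, more than or equal to 90.5% of promoters. The 3 promoters of *Il18r1* had between 5 and 8. The letters TTCNNNGAA, the core of a STAT binding site and the same on both strands, occurred in the *Ifng*, *Il12rb2* and 1 of the *Il18r1* promoters, against 8.30% of all promoters. The letters AGGTGTGA of a T-box factor (1.28% of all promoters) and TGTGGTTT of a RUNX factor (1.78%) were looked for on both strands and found in none of the promoters of these genes. Methylation was not measured in these files.

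Of the 8 genes, 2 rose in *Tet2/3* DKO CD4 SP cells, *Il18rap* and *Ifngr1*, and none fell. Among all tested genes 2.42% rose and 1.50% fell. In CPM (reads per 1000000 counted, scaled with TMM factors), both DKO libraries lay above every wild type library for 4 genes (*Il12rb1*, *Il12rb2*, *Il18rap* and *Ifngr1*) and below every one for *Il27ra*, while the groups overlapped for *Ifng*, *Il18r1* and *Ifngr2*. Among all tested genes, both DKO libraries lay above the wild type libraries in 19.6% and below them in 19.5%. The median log2 fold change of the 8 genes was 0.99, against 0.0076 over all tested genes. It was 0.15 without DKO replicate 2 and 1.21 without DKO replicate 1. Because RNA was taken from bulk cells, more cells of a type and more RNA per cell cannot be told apart.

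**Figure D1:**
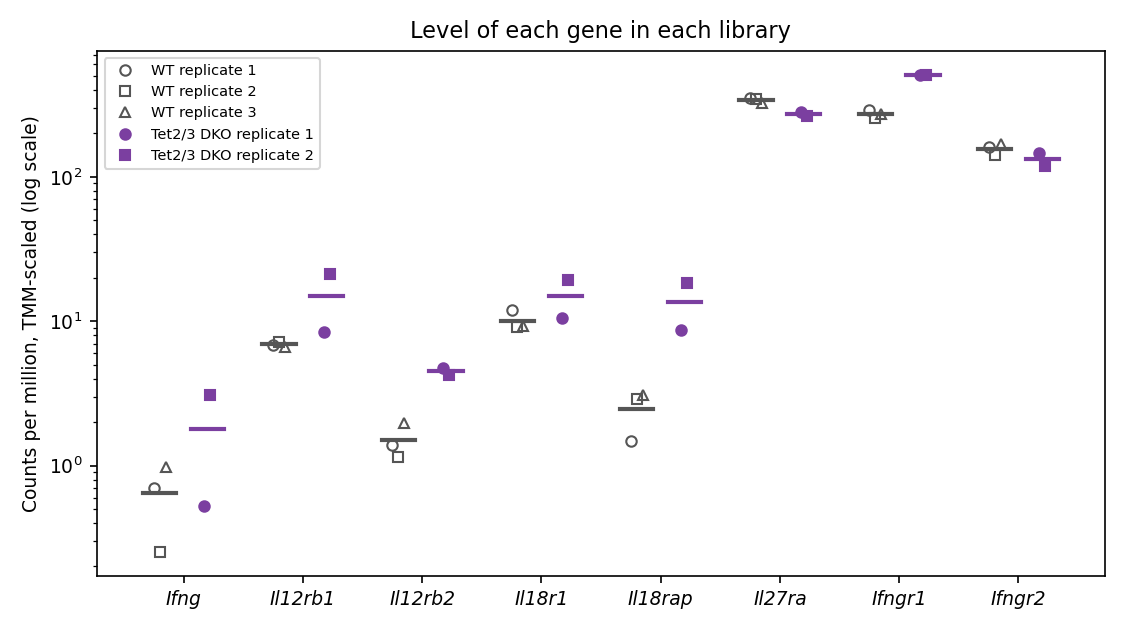
Level of each of the 8 genes in each library, in TMM-scaled CPM on a log axis. Open grey symbols are the 3 wild type libraries, filled purple symbols the 2 Tet2/3 DKO libraries, and horizontal bars the group means. The 2 DKO symbols nearly coincide for Ifngr1 (510.2 and 510.0) and are far apart for Ifng (0.524 and 3.08).

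The genes fell into 2 classes of level. Per kilobase of annotated exon, which allows different genes to be compared, wild type cells had 97.1 ± 4.18 CPM per kb of *Il27ra*, 95.8 ± 6.61 of *Ifngr1* and 41.5 ± 3.63 of *Ifngr2* (SD, n = 3). These are the chains through which a resting T cell receives IL-27 and IFN-γ. The other genes were far lower, at 2.10 ± 0.326 CPM per kb for *Il18r1*, 1.69 ± 0.0658 for *Il12rb1*, 0.498 ± 0.284 for *Ifng*, 0.395 ± 0.112 for *Il12rb2* and 0.367 ± 0.130 for *Il18rap* (SD, n = 3). In this order *Il27ra* and *Ifngr1* did not differ beyond the spread of the libraries, and neither did *Ifng*, *Il12rb2* and *Il18rap*. In DKO cells *Ifngr1* stood alone at the top with 179 ± 0.057 CPM per kb, above *Il27ra* at 77.9 ± 3.86 and *Ifngr2* at 35.1 ± 4.88 (SD, n = 2). Below them, the DKO ranges of *Il12rb1* (3.62 ± 2.23), *Il18r1* (3.09 ± 1.30), *Il18rap* (2.01 ± 1.03), *Ifng* (1.39 ± 1.39) and *Il12rb2* (1.19 ± 0.096) each overlapped with the next. The per-length levels of *Il12rb2* and *Ifng* are low estimates. Of the 3794 exon bases of *Il12rb2*, 1519 also lie in exons of *Serbp1* on the opposite strand, and of the 1295 of *Ifng*, 336 lie in those of the predicted gene *Gm49751*, and reads in such shared bases were left out when reads were counted.

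*Ifng* (ENSMUSG00000055170, chromosome 10 of mm10 from 118441046 to 118445892) encodes IFN-γ. It had 18, 6 and 27 counts in the wild type libraries and 11 and 55 in the DKO libraries. DKO replicate 1 lay within the wild type range and DKO replicate 2 above it. In CPM these were 0.696, 0.253 and 0.984 against 0.524 and 3.08, and the 95% Poisson intervals of counting error were 0.262 to 0.938 for DKO replicate 1 and 2.32 to 4.01 for DKO replicate 2. This gave a log2 fold change of 1.36 with an SE of 0.72 and an adjusted p of 0.307. Without DKO replicate 2 it was -0.35 (adjusted p = 0.815), and without DKO replicate 1 it was 2.21 (adjusted p = 0.00471). No direction can therefore be given for *Ifng*, whose value was set by which DKO library was used.

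*Ifngas1* (ENSMUSG00000112230, chromosome 10 from 118502035 to 118556525, minus strand) is a long non-coding RNA of the *Ifng* locus, also known as NeST or Tmevpg1, and its nearer end lies 56143 bases from *Ifng*. It was the only tested gene among 13 annotated within 200 kb of *Ifng*. The wild type libraries had 30, 12 and 35 counts and the DKO libraries 1115 and 1173. Both DKO libraries were thus far above every wild type library, at 59.4 ± 8.82 CPM (SD, n = 2) against 0.981 ± 0.415 (SD, n = 3). The log2 fold change was 5.89 (SE 0.23, adjusted p = 2.93e-06), a 59.1-fold difference, and it was between 5.60 and 6.12 when any 1 library was left out. The 2 DKO libraries, which differed 5.87-fold in *Ifng*, had 53.2 and 65.6 CPM of *Ifngas1*.

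The genes whose profile over the 5 libraries was most like that of *Ifng* were *Plcg2*, *Nat14* and *Gca*, at distances of 0.516, 0.595 and 0.699 on the log2 scale. Each had low counts, from 2 to 43 in *Plcg2*, and its highest count in DKO replicate 2.

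The IL-12 receptor joins IL-12Rβ1, shared with the IL-23 receptor, to IL-12Rβ2, which docks STAT4 and confines the response to cells that express it. *Il12rb1* (ENSMUSG00000000791, chromosome 8 from 70808449 to 70821424) had 6.89, 7.21 and 6.67 CPM in wild type and 8.39 and 21.3 CPM in DKO libraries. The wild type values were tight and the DKO values were not, the first lying just above the wild type range and the second far above it. On the log2 scale the difference was 1.08 (SE 0.34, adjusted p = 0.0881). It was 0.27 without DKO replicate 2 (adjusted p = 0.457) and 1.62 without DKO replicate 1 (adjusted p = 4.97e-06).

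*Il12rb2* (ENSMUSG00000018341, chromosome 6 from 67291318 to 67376188, minus strand) had 36, 27 and 54 counts in wild type and 100 and 76 in DKO libraries. In contrast to *Il12rb1*, the DKO libraries were alike, at 4.77 and 4.25 CPM against 1.39, 1.14 and 1.97 in wild type. The mean was 4.51 ± 0.364 (SD, n = 2) against 1.50 ± 0.425 CPM (SD, n = 3). The log2 fold change of 1.57 (SE 0.30) missed the threshold with an adjusted p of 0.0125. *Il12rb2* was past the threshold with DESeq2 (adjusted p = 0.00232), no filter on low counts (adjusted p = 0.00981) and robust moderation (adjusted p = 0.00801). It also passed in the summed stranded columns, which hold reads in bases shared with *Serbp1* (log2 fold change 1.40, adjusted p = 0.00517). In 11 of 17 alternatives it missed the threshold. Among these were the replicate number as a block (adjusted p = 0.0254) and each fit without a wild type library (adjusted p = 0.0304 to 0.0752, edgeR). The log2 fold change was 1.63 without DKO replicate 2 and lay between 1.40 and 1.83 in every alternative. *Serbp1*, the overlapping gene, was abundant and had 491 to 507 CPM in wild type and 507 to 541 CPM in DKO libraries.

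Since both chains are needed, their ratio was compared library by library. The ratio of *Il12rb2* to *Il12rb1* per kb of exon was 0.219, 0.171 and 0.319 in wild type libraries and 0.615 and 0.216 in DKO libraries. Only DKO replicate 1 lay above the wild type range, so the groups overlapped.

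The gene next to *Il12rb2*, *Il23r*, encodes the chain that pairs with IL-12Rβ1 to bind IL-23, and lies 46744 bases away. It had 6, 5 and 0 counts in wild type and 38 and 105 in DKO libraries. It rose with a log2 fold change of 4.65 (SE 0.79, adjusted p = 0.00582), and the ratio of the pooled counts was 25.8 with a 95% counting interval from 14.0 to 52.8. It was at 3.60 without DKO replicate 2 and 5.31 without DKO replicate 1, and lost the call with limma-voom (adjusted p = 0.0292) and when any wild type library was left out (adjusted p up to 0.0532). Near *Il12rb1*, 1 of 18 tested genes passed the threshold. That gene, *Ifi30*, encodes the lysosomal thiol reductase GILT and fell from 49.8, 47.2 and 39.8 CPM to 19.0 and 23.2 (log2 fold change -1.12, adjusted p = 0.0021).

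The IL-18 receptor is built of the binding chain IL-18Rα, encoded by *Il18r1*, and the accessory chain IL-18Rβ, encoded by *Il18rap*, without which no signal is passed on. The genes are neighbours, 14508 bases apart on chromosome 1. *Il18rap* (ENSMUSG00000026068, from 40515362 to 40551705) had 38, 69 and 84 counts in wild type and 182 and 330 in DKO libraries. Both DKO libraries were above the wild type range, at 8.68 and 18.5 CPM against 1.47, 2.91 and 3.06 CPM. *Il18rap* rose 5.38-fold, a log2 fold change of 2.43 (SE 0.38, adjusted p = 0.00478). *Il18rap* had a log2 fold change of 1.79 without DKO replicate 2 and 2.89 without DKO replicate 1. With 2 libraries against 2, it missed the threshold whichever wild type library was left out, with adjusted p = 0.0258, 0.0409 and 0.0330 without replicates 1, 2 and 3 and log2 fold changes of 2.16 to 2.62.

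*Il18r1* (ENSMUSG00000026070, from 40465552 to 40500854) behaved differently, with 11.9, 9.10 and 9.29 CPM in wild type and 10.4 and 19.3 CPM in DKO libraries. DKO replicate 1 lay inside the wild type range and DKO replicate 2 above it. The difference, 0.54 on the log2 scale (SE 0.26, adjusted p = 0.258), became 0.032 without DKO replicate 2 (adjusted p = 0.947) and 0.93 without DKO replicate 1 (adjusted p = 0.00273).

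In the ratio of the chains the DKO libraries came together. *Il18rap* relative to *Il18r1* per kb of exon was 0.0880, 0.228 and 0.235 in wild type and 0.593 and 0.682 in DKO libraries. Both DKO values exceeded every wild type value, at a mean of 0.638 ± 0.0633 (SD, n = 2) against 0.184 ± 0.0829 (SD, n = 3). In wild type cells the accessory chain was thus the scarcer of the pair at the RNA level, and in DKO cells it remained so by a smaller margin.

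**Figure D2:**
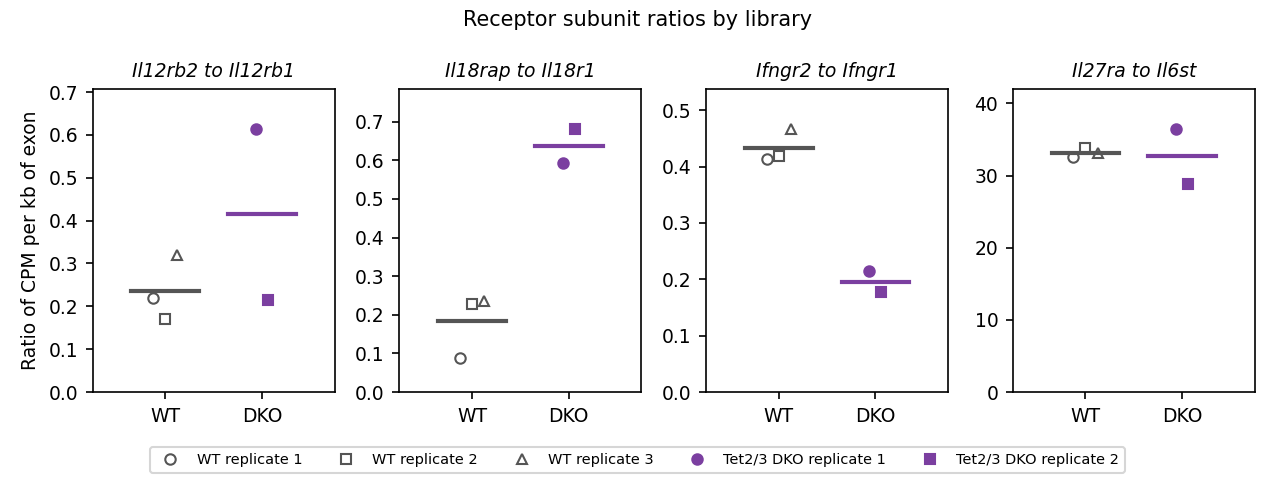
Ratio of receptor chains in each library, as CPM per kb of exon of the first gene over that of the second. Open grey symbols are wild type and filled purple symbols Tet2/3 DKO libraries, and bars are group means. The groups separate for Il18rap to Il18r1 (0.0880 to 0.235 against 0.593 and 0.682) and for Ifngr2 to Ifngr1 (0.414 to 0.468 against 0.215 and 0.177), and overlap in the other 2 panels.

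The *Il18r1* and *Il18rap* genes sit in a cluster of receptors of the IL-1 family. *Il1r1*, the receptor for IL-1, lies 148295 bases from *Il18r1* and rose from 3, 0 and 0 counts to 21 and 20 (log2 fold change 4.58, SE 0.86, adjusted p = 0.00532). The ratio of the pooled counts was 27.1, with a 95% counting interval from 8.65 to 136.8. It lost the call with the legacy moderation (adjusted p = 0.0134) and when any wild type library was left out (adjusted p up to 0.0425). Without wild type replicate 1 no wild type read remained, and the fitted log2 fold change of 7.58 is then no estimate of size. *Il1rl1*, the receptor for IL-33, ends 137 bases before *Il18r1* and had 10, 16 and 11 counts in wild type and 4 and 13 in DKO libraries (adjusted p = 0.937). *Il1rl2*, the receptor for IL-36, had a log2 fold change of -0.37 (adjusted p = 0.443). The genes most like *Il18rap* in profile were *Zfp296*, *H2-Q10* and *Asns*, at distances of 0.238, 0.326 and 0.391 on the log2 scale over 5 libraries.

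**Figure D3:**
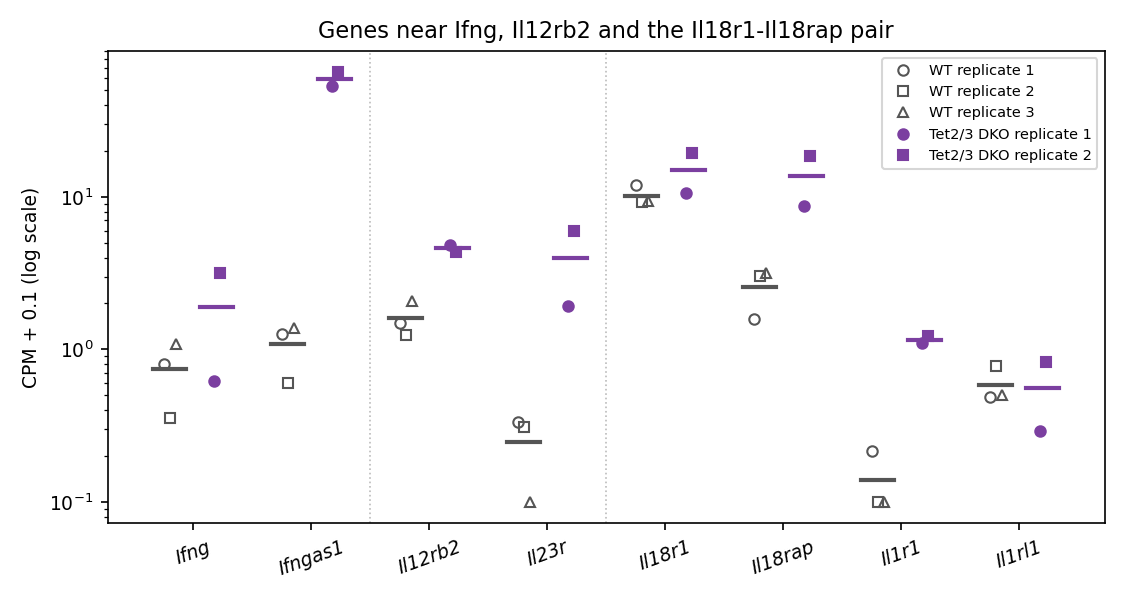
Level of Ifng, Il12rb2, Il18r1 and Il18rap and of genes near them in each library, as CPM plus 0.1 on a log axis, with dotted lines between the 3 loci. Open grey symbols are wild type and filled purple symbols Tet2/3 DKO libraries, and bars are means of the values plotted. Ifngas1 is at 53.2 and 65.6 CPM in the DKO libraries beside Ifng at 0.524 and 3.08, and Il1rl1 overlaps between the groups.

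The IFN-γ receptor consists of IFNGR1, which binds the cytokine, and IFNGR2, which brings JAK2 and whose amount limits signalling in T cells. *Ifngr1* (ENSMUSG00000020009, chromosome 10 from 19591949 to 19610229) had 292, 255 and 271 CPM in wild type and 510.2 and 510.0 CPM in DKO libraries. These are the closest DKO values of the 8 genes, and both lie far above the wild type range. *Ifngr1* rose 1.87-fold, a log2 fold change of 0.90 (SE 0.086, adjusted p = 0.000364). It was the only one of the 8 genes past the threshold in all 17 alternatives, with log2 fold changes of 0.85 to 0.96.

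*Ifngr2* (ENSMUSG00000022965, chromosome 16 from 91547072 to 91565623) had 160, 141 and 168 CPM in wild type and 145 and 119 CPM in DKO libraries. DKO replicate 1 lay within the wild type range and DKO replicate 2 below it. *Ifngr2* had a log2 fold change of -0.24 (SE 0.12, adjusted p = 0.263), which lay between -0.39 and -0.12 with 1 library left out.

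The ratio of *Ifngr2* to *Ifngr1* per kb of exon was 0.414, 0.419 and 0.468 in wild type and 0.215 and 0.177 in DKO libraries. The groups were well apart, with means of 0.433 ± 0.0296 (SD, n = 3) and 0.196 ± 0.0272 (SD, n = 2). The transcripts of the chain that binds IFN-γ therefore outnumbered those of its partner by more in DKO than in wild type cells.

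Only 1 gene within 200 kb of *Ifngr1* was tested, the long non-coding RNA *Gm33104* at a distance of 84638 bases. It rose from 0.735, 0.716 and 1.28 CPM to 4.43 and 3.36 CPM (log2 fold change 2.09, adjusted p = 0.00657) and lost the call when any wild type library was left out. None of 12 tested genes near *Ifngr2* passed the threshold, *Ifnar1*, *Ifnar2* and *Il10rb* of the same receptor family included. *Ifnar1*, a chain of the type I interferon receptor, had a log2 fold change of -0.45 (adjusted p = 0.0168). The profiles most like that of *Ifngr1* were those of *Ncf4*, *Adk* and *Sap30*, at distances of 0.0337, 0.0893 and 0.102 on the log2 scale.

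*Il27ra* (ENSMUSG00000005465, chromosome 8 from 84030294 to 84042589, minus strand) encodes the chain specific to the IL-27 receptor, which signals together with gp130, the product of *Il6st*. It had 349, 347 and 323 CPM in wild type and 282 and 263 CPM in DKO libraries. Both DKO libraries were below every wild type library, by a modest amount, with means of 272 ± 13.5 (SD, n = 2) and 340 ± 14.6 CPM (SD, n = 3). The log2 fold change of -0.32 (SE 0.085) missed the threshold in edgeR (adjusted p = 0.0515) and passed it in DESeq2 (adjusted p = 0.00529). *Il6st* had 879, 773 and 848 counts in wild type and 514 and 518 in DKO libraries (log2 fold change -0.28, adjusted p = 0.225). The ratio of *Il27ra* to *Il6st* per kb of exon was 32.6, 33.8 and 33.2 in wild type and 36.5 and 28.8 in DKO libraries, so the groups overlapped. None of 17 tested genes near *Il27ra* passed the threshold.

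**Figure D4:**
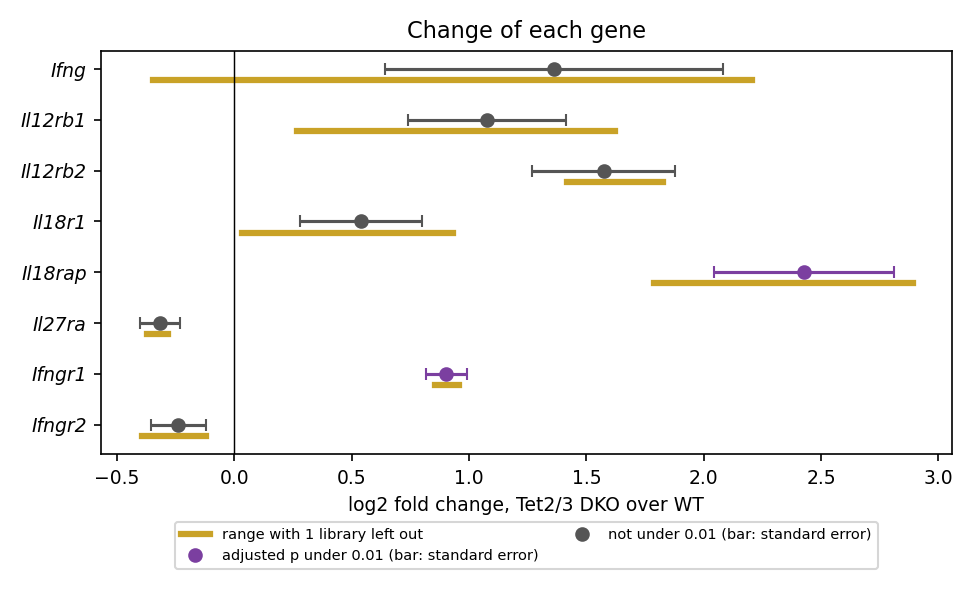
Log2 fold change of each of the 8 genes, Tet2/3 DKO over wild type, with its standard error (circle and thin bar, purple where the adjusted p is under 0.01). Yellow bars span the values obtained when any 1 of the 5 libraries was left out. The yellow bar crosses 0 for Ifng, from -0.35 to 2.21, and is shortest relative to the change for Ifngr1, from 0.85 to 0.96.

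The 8 genes differed in how alike the DKO mice were. By *Xist* and *Ddx3y* (744 and 1 counts in replicate 1, 0 and 1309 in replicate 2), the DKO mice were of different sex. A difference between them cannot be told apart from one of sex. DKO replicate 2 exceeded DKO replicate 1 by 5.87-fold in *Ifng*, 2.54-fold in *Il12rb1*, 2.13-fold in *Il18rap* and 1.85-fold in *Il18r1*. In the other 4 genes the ratio was between 0.821 and 0.9995. Among all tested genes, DKO replicate 2 was at least 1.5 times above DKO replicate 1 in 12.0%, and 1.5 times or more below it in 11.2%.

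Markers of several other cell types and states also differed between the groups. Yet the sort for CD4 and TCRβ and against CD8 would leave out NK, γδ T, B and CD8 T cells, macrophages and dendritic cells. The counts of marker genes that follow stand beside 2.42% that rose and 1.50% that fell among all tested genes. The summed level of 10 NK cell markers was 13.5 to 15.7 CPM in wild type and 127 and 232 CPM in DKO libraries. Of its 8 tested genes, 5 rose. *Eomes* and *Gzma*, which also stand among the type 1 genes below, made up most of the DKO sums. Without them the remaining 8 markers summed to 10.03 to 11.18 CPM in wild type and 26.3 and 81.4 CPM in DKO libraries, with 3 of 6 tested genes up. *Ncr1*, which defines NK cells and group 1 innate lymphoid cells, had 1, 0 and 0 counts in wild type and 31 and 40 in DKO libraries, and *Klrb1c* (NK1.1) had 61, 39 and 43 against 144 and 318. *Klrk1*, which encodes the receptor NKG2D, overlapped between the groups, at 40, 48 and 57 against 22 and 170 counts. Of 5 markers of group 1 innate lymphoid cells, 4 were tested and 2 rose, *Ncr1* and *Klrb1c*. Their sum, 294 to 305 CPM in wild type and 254 and 285 CPM in DKO libraries, was nearly all *Il7r*, which had 288 to 301 CPM in wild type and 239 and 246 CPM in DKO libraries (adjusted p = 0.0609). The summed level of 6 γδ T cell markers was 28.5 to 30.6 CPM in wild type and 235 and 376 CPM in DKO libraries. There *Tcrg-C1*, *Tcrg-C2* and *Tcrg-C4* rose, whereas *Trdc*, the constant region of the δ chain, had 302, 279 and 457 counts against 384 and 273. *Sox13*, a transcription factor of γδ T cells, lay lower, at 28, 25 and 26 against 5 and 4 counts (adjusted p = 0.0366). The sum of 7 markers of memory or activated T cells, a state that passes the sort gate, was 662 to 719 CPM in wild type and 1456 and 1373 CPM in DKO libraries. *Cxcr3* and *Ly6c2* among them rose, and without *Cxcr3*, which is also a type 1 gene, the sum was 643 to 688 CPM against 1209 and 1049 CPM. A large part of that sum was *Cd69*, which did not pass the threshold (adjusted p = 0.0131, edgeR). It had 229 to 239 CPM in wild type and 724 and 348 CPM in DKO libraries. Of 5 iNKT cell markers, 2 rose, *Klrb1c* and *Zbtb16*, which encodes PLZF and went from 32, 13 and 24 counts to 251 and 253. *Tbx21* of this list also lay above the wild type range in both DKO libraries. Its sum, 309 to 348 CPM in wild type and 312 and 468 CPM in DKO libraries, was mostly *Il2rb* and *Gata3*, and *Gata3* had 104 to 119 CPM in wild type and 64.3 and 88.9 CPM in DKO libraries (adjusted p = 0.0566). The 6 B cell markers summed to 551 to 641 CPM in wild type and 1027 and 1229 CPM in DKO libraries. Nearly all of this was *Ighm*, the immunoglobulin μ heavy chain, which rose (log2 fold change 0.92, adjusted p = 0.000949), while *Ms4a1* (CD20) had 2, 7 and 2 against 0 and 7. The sum of 9 macrophage and dendritic cell markers was 80.5 to 101 CPM in wild type and 106 and 190 CPM in DKO libraries, with none of 7 tested genes past the threshold (edgeR). Markers of conventional CD4 SP cells summed to 10390 to 10470 CPM in wild type and 8266 and 7307 CPM in DKO libraries, and 7 of 11 fell. *Foxp3*, which defines regulatory T cells, fell from 1147, 1379 and 1490 to 376 and 435 counts. It was the only gene past the threshold of 6 regulatory T cell markers, which summed to 750 to 941 CPM in wild type and 372 and 606 CPM in DKO libraries, and *Ctla4*, *Ikzf2* and *Il2ra* of that list overlapped between the groups. The NK, γδ, iNKT, B cell, macrophage and regulatory T cell sums were higher in DKO replicate 2 than in DKO replicate 1. So were *Ifng*, *Il12rb1*, *Il18r1* and *Il18rap*. Those of memory or activated T cells, conventional CD4 SP cells and CD8 T cells were lower in DKO replicate 2. The 3 CD8 T cell markers summed to 88.4 to 95.0 CPM in wild type and 63.0 and 58.35 CPM in DKO libraries. Of these, *Cd8b1* fell (log2 fold change -1.29, adjusted p = 0.000168, edgeR), while *Cd8a* and *Runx3* were fitted higher. The part of any of these cell types in the levels of the 8 genes was not tested.

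Of the other genes of the pathway, grouped by role, 73 were tested, and 13 rose and 1 fell, against 2.42% and 1.50% of all tested genes. A count of 1 in a list rests on that gene alone. The cytokines that feed these receptors had few or no reads. *Il27* and *Il23a* had no count in any library and *Il12a* and *Il12b* at most 1, and of 3 tested ligand genes (*Il18*, *Ebi3* and the IL-18 inhibitor *Il18bp*) none passed the threshold (edgeR). *Il18* had 7, 14 and 20 counts in wild type and 26 and 27 in DKO libraries, and *Ebi3*, a subunit of IL-27, had 33, 26 and 40 against 7 and 16. Per kb of exon these came to 0.514 ± 0.228 CPM for *Il18* and 1.11 ± 0.157 for *Ebi3* in wild type (SD, n = 3). A count of 0 here allows up to 3 counts.

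Of 12 genes that carry the signals inside the cell, 1 rose. This was *Stat4*, which IL-12 activates, with 698, 662 and 781 counts in wild type and 1867 and 1960 in DKO libraries (log2 fold change 1.84, SE 0.12, adjusted p = 3.10e-05). The kinases *Jak1*, *Jak2* and *Tyk2*, *Stat3*, *Il6st* and the IL-18 arm of *Myd88*, *Irak1*, *Irak2*, *Irak4* and *Traf6* did not pass the threshold. Among them *Jak2* (log2 fold change 0.55, adjusted p = 0.0256) and *Irak2* (-0.80, adjusted p = 0.0253) came closest.

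Of 6 transcription factor genes of type 1 cells, 5 were tested and 2 rose, *Stat4* and *Eomes*. *Eomes*, a T-box factor of NK and memory CD8 T cells, went from 46, 49 and 72 counts to 1704 and 1658 (log2 fold change 5.32, SE 0.16, adjusted p = 1.02e-06). *Tbx21*, which encodes T-bet, had 93, 61 and 113 counts in wild type and 150 and 334 in DKO libraries (log2 fold change 1.87, adjusted p = 0.0190).

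Type 1 effector genes gave the largest share, with 5 of 11 tested genes up and a median log2 fold change of 2.23. *Cxcr3*, a chemokine receptor of type 1 cells, rose from 482, 455 and 856 counts to 5187 and 5787 (log2 fold change 3.63, SE 0.21, adjusted p = 2.28e-05). *Prf1*, which encodes perforin, rose from 604, 545 and 581 to 1486 and 1286 counts (log2 fold change 1.67, adjusted p = 3.10e-05). *Gzma* (granzyme A, 72, 33 and 52 against 402 and 1042 counts) and *Xcl1* (lymphotactin, 33, 21 and 55 against 105 and 151 counts) rose as well, with log2 fold changes of 4.23 and 2.23. *Gzma* was at 3.22 without DKO replicate 2 and 4.83 without DKO replicate 1, and missed the threshold with robust moderation and without wild type replicate 2 or 3 (adjusted p = 0.0336, 0.0198 and 0.0194). *Ccl3*, which encodes the chemokine MIP-1α, had 1, 1 and 2 counts in wild type and 12 and 717 in DKO libraries. Its log2 fold change of 8.42 (SE 1.67, adjusted p = 0.00739) was 3.33 without DKO replicate 2, which lost the call, as did leaving out any wild type library, limma-voom (log2 fold change 5.96, adjusted p = 0.372) and the legacy and robust moderations (adjusted p = 0.0133 and 0.0689). *Gzmb*, *Ccl4*, *Ccl5*, *Fasl*, *Tnf* and *Lta* did not pass the threshold, and *Gzmb* had 109, 62 and 71 counts in wild type and 21 and 843 in DKO libraries.

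Of 22 genes induced by IFN-γ, 21 were tested and 1 rose, *Gbp9*, a guanylate-binding GTPase, with a log2 fold change of 0.59 (SE 0.094, adjusted p = 0.00513). The median log2 fold change of the list was 0.16, against 0.0076 over all tested genes. In DKO cells 16 of the 21 were fitted higher, beside 6908 of all 13525 tested genes. Among the 16 were *Gbp7* (0.43, adjusted p = 0.0174) and *Iigp1* (0.44, adjusted p = 0.0263). *Irf1* (-0.35), *Tap1* (-0.21) and *Psmb9* (-0.070) had log2 fold changes below 0 and none of them passed the threshold. *Cxcl10* had 31, 23 and 21 counts in wild type and 147 and 50 in DKO libraries (log2 fold change 2.36, adjusted p = 0.0121).

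Among 13 other T cell cytokine genes, 5 were tested and 1 rose. *Il4*, the type 2 cytokine, had 18, 16 and 13 counts in wild type and 58 and 61 in DKO libraries (log2 fold change 2.32, SE 0.35, adjusted p = 0.00402). In this cytokine, unlike *Ifng*, the DKO libraries were alike. *Il3*, *Il9*, *Il22* and *Csf2* had no count in any library, and *Il10* had 2, 1 and 3 against 0 and 86 counts.

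Of 12 related receptor genes, 11 were tested. *Il1r1* and *Il23r*, described above, rose, and *Il6ra*, the IL-6 receptor chain that shares gp130 with IL-27Rα, fell from 7592, 6935 and 8080 to 3756 and 2453 counts (log2 fold change -0.89, SE 0.12, adjusted p = 0.00186). Of 10 genes that restrain these pathways, 9 were tested and 2 rose. These were *Socs3*, an inhibitor of signals through gp130 and the IL-12 receptor, from 415, 448 and 496 to 745 and 998 counts (log2 fold change 1.37, adjusted p = 0.00233), and *Gfi1*, a transcriptional repressor, from 303, 274 and 266 to 554 and 454 counts (log2 fold change 1.24, adjusted p = 0.00114). *Socs1*, the inhibitor of IFN-γ signalling, had a log2 fold change of 0.66 (adjusted p = 0.0355).

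**Figure D5:**
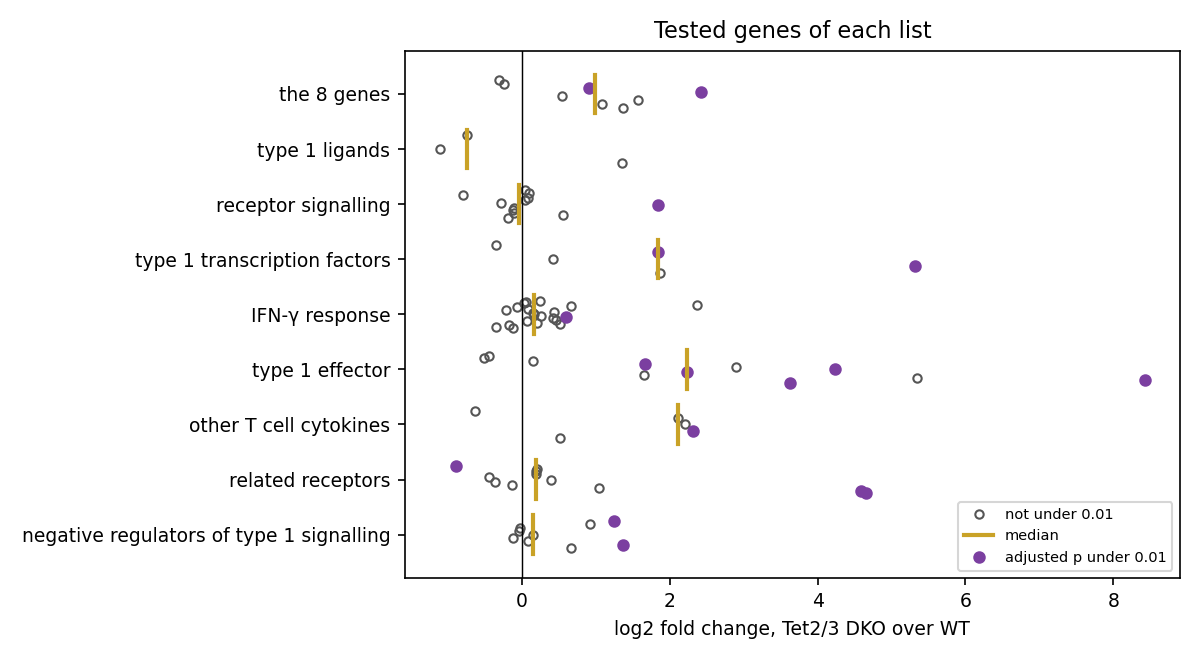
Log2 fold change, Tet2/3 DKO over wild type, of the tested genes of the 8 cytokine and receptor genes and of each list, with filled purple points where the adjusted p is under 0.01, open points otherwise and a yellow line at the median of each list. The median is 2.23 for type 1 effector genes and 0.16 for genes of the IFN-γ response, and the farthest point on the right is Ccl3 at 8.42.

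Taking the surroundings of all 8 genes, 130 other genes lay within 200 kb and 56 of them were tested. Of these, 5 rose and 1 fell, or 10.7%, beside the 2.42% and 1.50% of all tested genes that rose and fell. Those that rose included *Ifngas1*, *Il23r*, *Il1r1* and *Gm33104*. Of the 18 genes of the lists or the surroundings that passed the threshold, 5 passed it in every alternative, namely *Stat4*, *Eomes*, *Cxcr3*, *Prf1* and *Ifngas1*. With any wild type library left out, *Gbp9*, *Xcl1*, *Il4*, *Il6ra*, *Socs3* and *Gfi1* missed it (adjusted p up to 0.0495 in *Xcl1*), as did *Ifi30* without replicate 1 or 2 and *Tet3* without replicate 2 or 3.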

How the data were processed

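The authors trimmed reads with fastp 0.21.0, aligned them with STAR 2.7.5a to mm10 (GRCm38.100 annotation) and deposited counts of reads per gene for each library, without normalization or pooling. Reads on several loci or overlapping genes were left out. Strand was not marked, and the unstranded counts were used. Symbols, coordinates and exon lengths came from GENCODE M21 of the same build, which held 55227 of 55487 identifiers.

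Counts were tested with edgeR 4.0.16 in R 4.3.3 (quasi-likelihood test, newer moderation, TMM, filterByExpr by genotype with a minimum count of 10, Benjamini-Hochberg adjustment over 13525 genes). The threshold was an adjusted p of 0.01. Rose and fell are written of genes past it. The standard error (SE) of a log2 fold change is its size over the root of its F statistic. DESeq2 1.42.0 and limma 3.58.1 served as alternatives, with other scalings, filters, moderations, the stranded columns, a replicate block and each library left out.

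Named genes are the 8, pathway genes past the threshold or in small counts, genes past it within 200 kb, *Tet2*, *Tet3*, and for *Ifng* and the 2 genes past the threshold the 3 nearest profiles by Euclidean distance of centred log2 CPM. Further genes were named after their values were seen. The genes and lists were chosen with earlier results of these data known. The p-values measure the spread between mice, and counting intervals cover counting error only. Clonotype tables were not used here. Some genes that enter the counts are not reported here by name.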

Additional observations from a re-analysis of the deposited data

How the results depend on the processing

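The number of genes past the threshold, 530, was 1030 with DESeq2 and 1174 at a threshold of 0.05, and it ranged from 110 to 1312 when 1 library was left out. Of the 8 genes, 2 passed, with 4 in DESeq2 and between 1 and 5 with 1 library left out. Of the pathway genes, 14 passed, with 25 in DESeq2, 26 at 0.05 and between 4 and 24 with 1 library left out. Without a wild type library only *Ifngr1* of the 8 remained. Without DKO replicate 1, *Ifng*, *Il12rb1* and *Il18r1* passed as well, and without DKO replicate 2 *Il12rb2* did. In those 2 fits the lone DKO library is assumed to vary like wild type. *Ifng* turned to -0.35 without DKO replicate 2, against 2.21 without DKO replicate 1, and no value could be had for it under the stricter filter. With the length of the longest transcript in place of all exons, the ratio of *Il18rap* to *Il18r1* became 0.760 in DKO cells, that of *Ifngr2* to *Ifngr1* 0.327 in wild type and 0.148 in DKO cells, and that of *Il27ra* to *Il6st* 30.9 in wild type. Other scalings left the count of the 8 genes past the threshold at 2.

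Replicate numbers are shared in the labels but the mice are different animals. Deviations of same-numbered libraries from their group means correlated at 0.015 and 0.0045, so the numbers were not taken as pairs. With the number as a replicate block, 359 genes passed, 2 of the 8 and 10 of the pathway genes, with *Gbp9*, *Xcl1*, *Il4*, *Gfi1* and *Il1r1* of the lists and *Gm33104* near *Ifngr1* no longer past the threshold. The alternatives for genes of the lists and surroundings were chosen after seeing the data, and all 18 kept their direction in them. Low counts limit *Ifng*, with 6 to 55 reads per library. The causes of these changes were not tested.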
